A study of Mus musculus with 12 samples.

Results

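The lateral prostate of mice labelled as Med1 knockouts was compared with that of wild-type mice across all genes measured on the array. The comparison used 6 of the 12 arrays of the series, the 3 lateral arrays labelled Med1 knock out against the 3 lateral wild-type arrays, all from mice of 16 weeks of age, and it was described over all 18194 genes that had a probe set of a single symbol. The other 6 arrays were ventral prostate of the same genotypes. They entered the choice of each gene's probe set, the shared estimate of the spread and the test of whether the lobes differed. No treatment was recorded. The labels do not name the strain, the deleted part of Med1, or a promoter or Cre line that drives the deletion, and nothing in them ties each array to an animal of its own. The p-values therefore reflect the spread among these samples alone, and that spread may be technical. Values are log2 probe set signals after RMA, a method that corrects background, equalises the distributions of the arrays and summarises the short probes of each set. A gene was called changed at an adjusted p under 0.05 from limma's moderated test.

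Med1 is a subunit of Mediator, the large complex that carries signals from DNA-bound transcription factors, nuclear receptors among them, to RNA polymerase II. The mouse prostate is made of paired lobes whose luminal cells secrete different sets of proteins into semen, around which lie basal cells, smooth muscle, fibroblasts and nerves. The prostate arises from the urogenital sinus, whereas the neighbouring seminal vesicle and vas deferens arise from the Wolffian duct, and the seminal vesicle makes the small clotting and coating proteins of the Svs family in very large amounts.

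The tissue carried the genes that define prostate epithelium. Probasin (Pbsn), an androgen-dependent secreted protein, had a mean signal of 13.43 log2 units in wild type and 13.45 under the knockout label, and the prostate homeobox gene Hoxb13 averaged 11.1 and 11.03. Luminal keratin Krt8 read 11.77 and 11.67. Genes of seminal vesicle type were also bright in the wild-type lateral arrays, with Svs5 at 13.73. Arrays of a group correlated at 0.9935 to 0.9958 over all probe sets (Pearson) and arrays of different genotype at 0.9891 to 0.9926. The targeted gene did not separate the genotypes. Med1 read 8.58, 8.74 and 8.23 on the wild-type arrays and 8.4, 8.34 and 8.44 on the arrays labelled knockout, a difference of -0.13 ± 0.12 (SE, limma adjusted p = 0.622). Limma called 0 of its 7 probe sets, of which 3 were lower and 4 higher, and 1 had an unadjusted p under 0.05 (-0.26 ± 0.11). The probe set that read -0.13 ± 0.12 was lower on the ventral arrays labelled knockout, at a mean of 8.86 against 9.43 (-0.57 ± 0.12, limma adjusted p = 0.0119). For that probe set the 2 lobes were not separated by the test of their difference (0.44 ± 0.18, limma adjusted p = 0.136). Because the lateral reading did not separate the genotypes, the arrays are called labelled knockout throughout. Which probe sets lie in the deleted part is not known.

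More genes were lower than higher, and the largest differences were falls. Of 18194 genes tested, 916 passed (5.03%), 294 of them higher (1.62%) and 622 lower (3.42%) in the arrays labelled knockout. Counts of called genes in the lists and clusters below stand beside these shares of 1.62% higher and 3.42% lower. At least 2-fold, 129 genes passed (0.709%), of which 27 were higher (0.148%) and 102 lower (0.561%). The median difference over all genes was -0.0025 log2 units, and over the brightest 60% it was -0.045. Centring each array on the median of those brighter genes turned the balance of all calls to 491 higher and 457 lower, while 120 genes still passed at 2-fold against 129. Calling the wild-type and the labelled knockout lateral arrays WT_LP and KO_LP, 588 genes passed when WT_LP replicate 2 was left out, 499 when WT_LP replicate 3 was and 513 when KO_LP replicate 2 was. Without KO_LP replicate 3, 177 genes were higher, and without WT_LP replicate 1, 189 were. Of the called genes 464 had more than 1 probe set, and in 337 of these all probe sets shared the sign. The plot of all genes places the called genes along the range of signal.

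**Figure D1:**
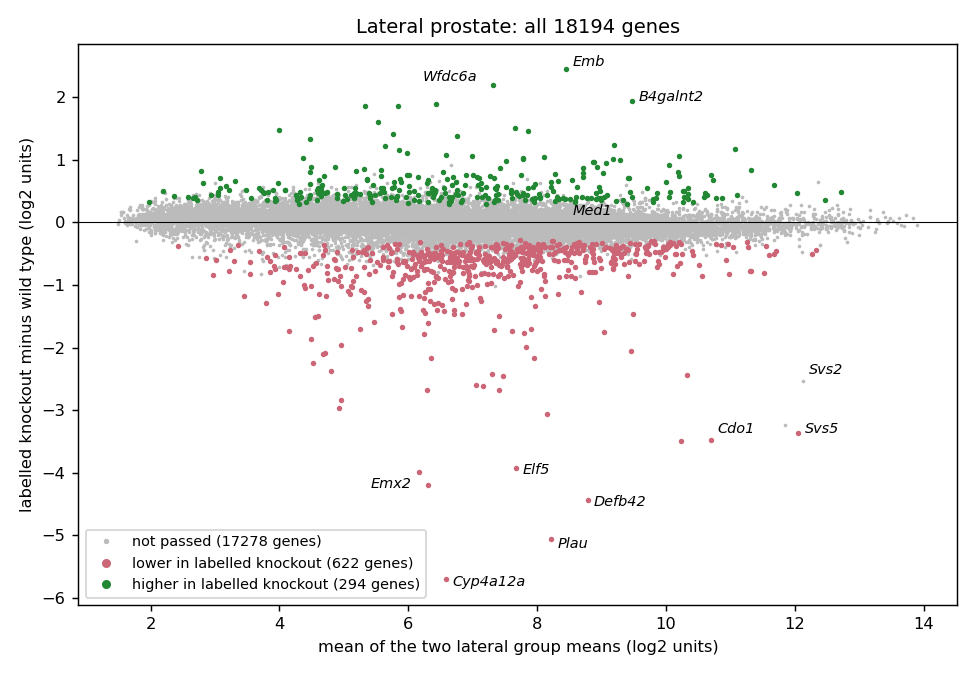
Difference between the labelled knockout and wild-type lateral arrays in log2 units (vertical axis) against the mean of both group means in log2 units (horizontal axis), 1 point per gene, with called genes in colour. Falls reach -5.70 in Cyp4a12a and rises 2.44 in Emb, while Med1 lies near 0.

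A run of changed neighbours lay in the Svs and Wfdc region of chromosome 2. The region holds genes for seminal vesicle secretory proteins, which clot and coat semen, beside genes for small inhibitors of proteases with the whey acidic protein fold. Svs4, Svs3a, Svs6 and Svs5 lie next to each other among the measured genes and were all lower. The next measured gene, Slpi, the secretory leukocyte protease inhibitor, was higher. The upstream sequences of 3 of the lowered genes and of Slpi are shown because these genes lie side by side and moved in opposite directions. They are the 250 bases before and 50 after each start in the RefSeq annotation of GRCm38.p6, at chr2:164278258-164278557 (minus strand) for Svs4, chr2:164316501-164316800 (plus) for Svs6, chr2:164332515-164332814 (plus) for Svs5 and chr2:164356458-164356757 (minus) for Slpi. Capitals mark the letters TATAAA and AGAACA, searched on both strands, so that a match on the other strand shows as TTTATA or TGTTCT.
Svs4: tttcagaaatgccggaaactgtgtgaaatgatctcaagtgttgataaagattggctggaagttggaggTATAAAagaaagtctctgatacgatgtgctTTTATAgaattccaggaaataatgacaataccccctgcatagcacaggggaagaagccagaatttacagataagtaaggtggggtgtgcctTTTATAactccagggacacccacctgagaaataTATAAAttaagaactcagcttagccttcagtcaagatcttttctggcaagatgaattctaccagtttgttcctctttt
Svs6: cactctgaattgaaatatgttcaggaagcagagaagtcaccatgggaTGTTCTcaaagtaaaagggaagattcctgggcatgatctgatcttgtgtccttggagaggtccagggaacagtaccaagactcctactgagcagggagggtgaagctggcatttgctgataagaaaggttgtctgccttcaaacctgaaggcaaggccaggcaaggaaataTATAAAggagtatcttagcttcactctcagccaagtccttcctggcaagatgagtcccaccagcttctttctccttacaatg
Svs5: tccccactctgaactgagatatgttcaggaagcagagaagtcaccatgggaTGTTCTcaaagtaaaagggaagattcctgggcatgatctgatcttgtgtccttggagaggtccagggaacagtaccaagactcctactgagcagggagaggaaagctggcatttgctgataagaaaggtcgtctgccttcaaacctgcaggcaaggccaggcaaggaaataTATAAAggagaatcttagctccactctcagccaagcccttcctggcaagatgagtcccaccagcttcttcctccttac
Slpi: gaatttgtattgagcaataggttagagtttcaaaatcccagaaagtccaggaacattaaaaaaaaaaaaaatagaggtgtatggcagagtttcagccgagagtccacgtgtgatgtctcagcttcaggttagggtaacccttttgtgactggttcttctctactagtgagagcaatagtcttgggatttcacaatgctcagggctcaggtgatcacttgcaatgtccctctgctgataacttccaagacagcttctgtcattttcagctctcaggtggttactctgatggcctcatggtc
The Svs5 and Svs6 sequences were identical at 93.8% of aligned positions, against 60.2% for Svs4 and Svs5 and 52.4% for Svs5 and Slpi. TATAAA stood 28 bases upstream of the start in Svs4, 28 in Svs5 and 32 in Svs6, and 13.6% of 32544 distinct mouse promoter windows of this length held it on either strand. Svs4 held it at 4 places in all. AGAACA, the letters of an androgen receptor binding half-site, occurred once each in Svs5 and Svs6, 199 and 203 bases upstream on the opposite strand, and in 18.9% of all windows. None of the 4 sequences held the full palindrome, AGAACA and TGTTCT with 3 bases between them, which 0.00922% of all windows held. These matches describe letters and not bound sites, and the Slpi window held neither of the short motifs.

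Svs4 read 11.98, 11.91 and 12.06 on the wild-type arrays and 8.76, 8.44 and 8.28 on those labelled knockout, a difference of -3.49 ± 0.29 (SE, limma adjusted p = 6.41e-06). Svs5 went from 13.74, 13.7 and 13.76 to 11.02, 11.03 and 9.06 (-3.36 ± 0.37, adjusted p = 8.22e-05). Svs6 read 8.32, 8.61 and 8.62 against 6.37, 5.95 and 5.95 (-2.43 ± 0.25, adjusted p = 4.23e-05). In each of these genes every array labelled knockout lay below every wild-type array, which was a condition for naming them. This held for 15.7% of all genes. Svs5 and Svs6 are related genes, and whether their probe sets read each other's transcripts was not tested. Svs3a changed from 7.54, 7.51 and 7.67 to 6.4, 5.78 and 6.12 (-1.47 ± 0.15), and the Wfdc-type gene Wfdc15b, on the other side of Svs2, from 7.78, 7.48 and 7.89 to 6.51, 6.36 and 6.65 (-1.21 ± 0.14). Slpi read 7.27, 7.2 and 6.95 on the wild-type arrays and 8.7, 8.33 and 8.74 on those labelled knockout (1.45 ± 0.15, limma adjusted p = 4.12e-05). Further along, Wfdc6a rose by 2.20 ± 0.14 and the sperm-coating inhibitor Eppin by 1.16 ± 0.17, while Wfdc2 fell by 0.63 ± 0.16. Of the 22 measured genes between Wfdc5 and Wfdc3, 3 were higher and 6 lower, with a median of -0.01. This region, and the defensin and Hox groups below, were chosen after their values were seen.

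The whole list of seminal vesicle secretory genes was lower in mean level. Of 8 measured genes 5 fell (62.5% beside 3.42% of all genes) and 0 rose, with a median of -2.48. The mean over the list ran from 10.02 to 10.14 on the wild-type arrays and from 7.14 to 8.3 on the arrays labelled knockout. Svs2, a semenogelin-like clot protein, read 13.42, 13.35 and 13.4 against 11.89, 11.99 and 8.71. Pate4, a small protein of seminal vesicle fluid, read 13.52, 13.4 and 13.49 against 11.11, 11.35 and 8.26. Neither passed (-2.53 ± 1.03, limma adjusted p = 0.186, and -3.23 ± 0.9, adjusted p = 0.0557), and their lateral arrays did not overlap, as was the case for 26.9% of all genes (15.7% lower). KO_LP replicate 3 was lower than the other 2 arrays of its group for both, and among the ventral arrays that share the spread WT_VP replicate 3 (ventral wild type) stood at 7.55 for Svs2 against 2.8 and 2.99. A mean over all probe sets gave -4.15 for Svs2 (limma adjusted p = 0.00551). Without KO_LP replicate 3 the differences were -1.45 for Svs2 and -2.24 for Pate4, and neither passed in the fit with the ventral arrays (limma adjusted p = 0.494 and 0.188). Both passed when the ventral arrays were left out as well (adjusted p = 1.47e-04 and 3.26e-05). Robust variance estimates gave adjusted p of 0.325 for Svs2 and 0.153 for Pate4. Sva, another member, fell by 1.12 ± 0.1, and Spinkl read 6.07 and 6.03. In whole tissue, fewer cells of a type and less RNA per cell cannot be told apart, and the part of seminal vesicle-type tissue in the other falls was not tested.

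**Figure D2:**
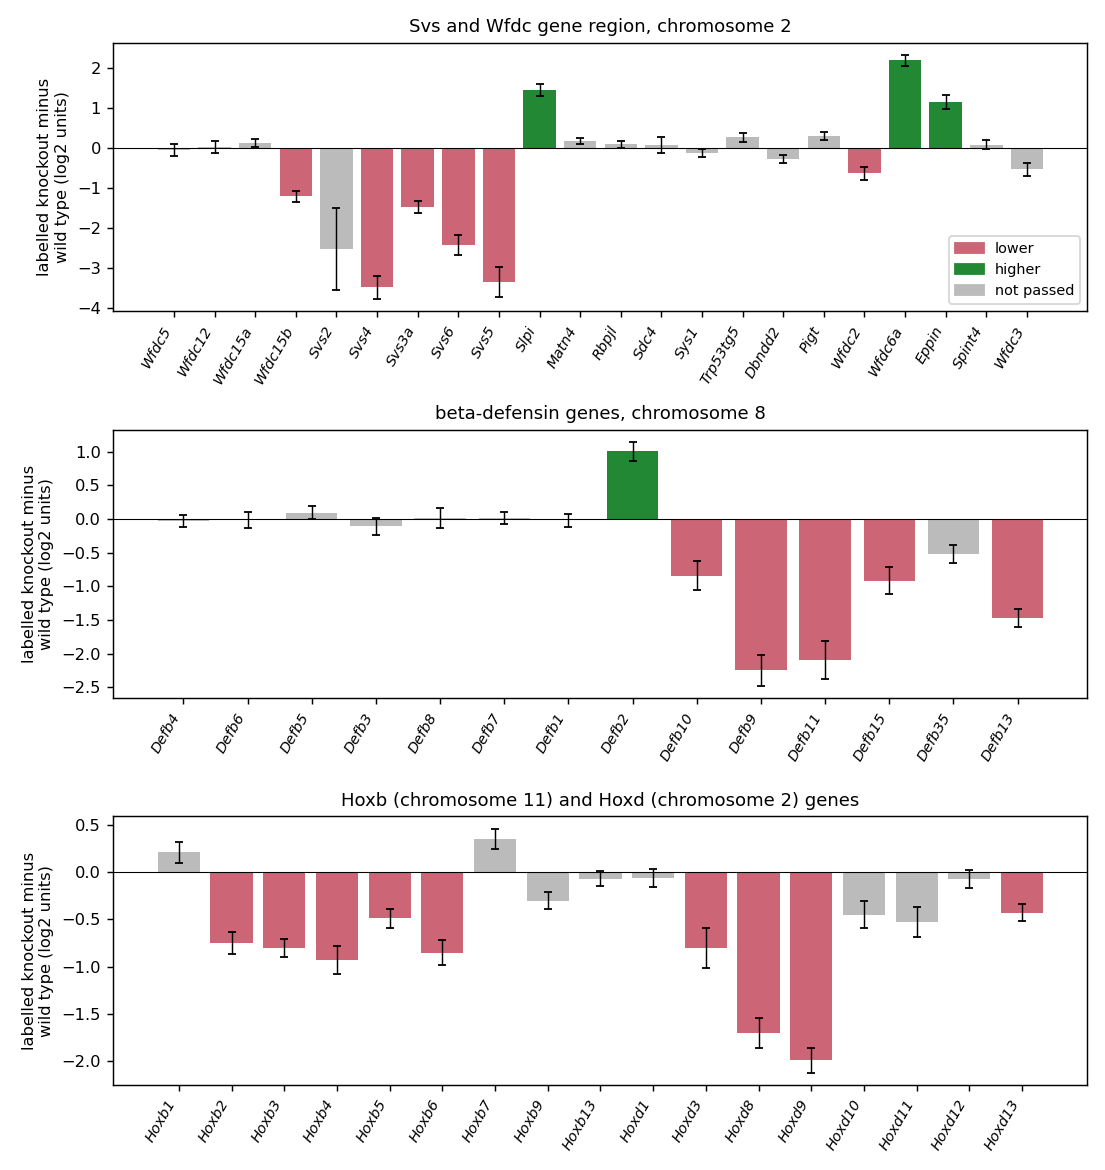
Difference between the labelled knockout and wild-type lateral arrays in log2 units, with moderated SE as error bars, for genes in their order along the chromosome (top, middle) or by number (bottom, where Hoxb lies on chromosome 11 and Hoxd on chromosome 2). The Svs genes reach -3.49 beside Slpi at 1.45, Defb9 reaches -2.25 beside Defb2 at 1.01, and Hoxd9 reaches -1.99.

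Beta-defensins, small antimicrobial peptides of which many are made in the male tract, moved in both directions along chromosome 8. Defb9 read 5.21, 5.45 and 6.25 on the wild-type arrays and 3.25, 3.77 and 3.14 on those labelled knockout (-2.25 ± 0.23, limma adjusted p = 3.87e-05). Its neighbour Defb11 read 5.58, 6.23 and 5.34 against 3.76, 3.84 and 3.26 (-2.1 ± 0.28). Both were under 4.53 in the arrays labelled knockout, the lower quartile of all probe sets, so these falls are taken as lower bounds. Defb13 fell by 1.47 ± 0.13, Defb15 by 0.92 ± 0.2 and Defb10 by 0.84 ± 0.22, whereas Defb2 rose from 7.28 to 8.29 (1.01 ± 0.14). Defb1, the brightest of the group, read 12.86 and 12.83. On chromosome 14, Defb42 had the largest defensin difference, with 10.94, 11.01 and 11.04 on the wild-type arrays and 6.78, 6.74 and 6.19 on those labelled knockout (-4.43 ± 0.14, adjusted p = 2.40e-10). Over the 19 measured beta-defensins 6 fell (31.6% beside 3.42% of all genes) and 1 rose (5.26% beside 1.62%). Their median was -0.021, and 8 had low signal in both groups.

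Transcription factors made up several of the largest falls. Emx2, a homeobox gene needed for the developing urogenital tract, read 8.28, 8.22 and 7.96 on the wild-type arrays and 4.04, 4.3 and 4.15 on those labelled knockout (-3.99 ± 0.11, limma adjusted p = 1.09e-10). Emx2os, the antisense gene beside it, went from 5.75 to 3.66 (-2.09 ± 0.16). Elf5, an epithelial Ets factor best known from the mammary gland, read 9.55, 9.53 and 9.85 against 5.76, 5.64 and 5.77 (-3.92 ± 0.13). These groups lay far apart on every array. Foxi1, the forkhead factor of proton-secreting epithelial cells, read 6.43, 6.4 and 6.38 against 3.33, 3.75 and 3.26 (-2.96 ± 0.16). For Emx2, Emx2os and Foxi1 the signal in the arrays labelled knockout was under 4.53, and these falls are taken as lower bounds. The T-box repressor Tbx2 fell by 1.20 ± 0.13 and Osr1, an early gene of intermediate mesoderm, by 0.65 ± 0.12, while Six4 rose by 0.52 ± 0.12. Of 35 measured prostate and Wolffian duct transcription factors, Hoxd9 and Hoxd13 included, 6 fell and 1 rose, with a median of -0.066. The share lower was 17.1% beside 3.42% of all genes. Foxa1, a pioneer factor of luminal cells, averaged 10.3 and 10.41.

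Homeobox genes of the Hox clusters, which set position along the body and the reproductive tract, were lower in the Hoxb and Hoxd clusters where called. In the Hoxd cluster Hoxd9 read 8.79, 8.77 and 8.93 on the wild-type arrays and 7.01, 6.92 and 6.58 on those labelled knockout (-1.99 ± 0.13, limma adjusted p = 6.97e-07). Hoxd8 read 8.73, 8.65 and 8.88 against 7.2, 6.8 and 7.17 (-1.7 ± 0.16). Hoxd13 fell by 0.43 and Hoxd3 by 0.80, the latter at low signal in both groups, and all 8 measured Hoxd genes were below 0, with 4 called. In the Hoxb cluster 5 of 9 were lower, beside 3.42% of all genes, and 0 were higher. The lower ones included Hoxb4 (-0.93 ± 0.15), Hoxb6 (-0.85 ± 0.13) and Hoxb3 (-0.8 ± 0.098), whereas Hoxb13 averaged 11.1 and 11.03. Of 9 Hoxa genes 0 fell and 1 rose (Hoxa5, 0.43 ± 0.097), and of 7 Hoxc genes 0 passed by limma, with 1 at an unadjusted p under 0.05. The medians were -0.49 for Hoxb and for Hoxd, 0.17 for Hoxa and -0.01 for Hoxc, and no test of the difference between clusters was made.

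Among the remaining large falls were enzymes, secreted proteins and membrane proteins. Cyp4a12a, an androgen-inducible enzyme that adds a hydroxyl group to the end of fatty acids, read 9.47, 9.3 and 9.56 on the wild-type arrays and 4.52, 4.14 and 2.56 on those labelled knockout (-5.7 ± 0.36, limma adjusted p = 5.54e-07). The signal there was low, so the size of the Cyp4a12a fall is taken as a lower bound. KO_LP replicate 3, at 2.56, lay under the other arrays of its group. Plau, the urokinase-type plasminogen activator, read 10.77, 10.5 and 10.97 against 5.68, 6.22 and 5.16 (-5.05 ± 0.23), and both of its probe sets passed. In the plasminogen list 2 of 17 genes fell and 0 rose, the second being the membrane protease hepsin (Hpn, -0.64 ± 0.15). The list median was -0.0058. Ptgds, the lipocalin-type prostaglandin D synthase, read 8.45, 8.46 and 8.47 against 6.07, 5.84 and 5.64 (-2.61 ± 0.25). Nefh, the heavy neurofilament chain, read 8.24, 8.34 and 8.62 against 4.19, 4.4 and 4.03 (-4.2 ± 0.14), again with low signal in the arrays labelled knockout.

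The other falls named by size covered signalling and structural genes. Nr4a3, an orphan nuclear receptor, read 8.78, 8.55 and 8.88 on the wild-type arrays and 6.32, 5.99 and 5.91 on those labelled knockout (-2.67 ± 0.17, limma adjusted p = 5.54e-07). Dusp4, a phosphatase that switches off MAP kinases, went from 7.59, 7.37 and 7.94 to 4.76, 5.33 and 4.8 (-2.67 ± 0.16). Gabrp, the pi subunit of the GABA-A receptor that is found in epithelia, went from 8.3, 8.5 and 8.25 to 5.33, 5.98 and 5.94 (-2.6 ± 0.17) and lies 5 measured genes from Foxi1. No arrays overlapped for these 3 genes, a condition for naming falls that 15.7% of all genes met. Prr9 fell by 2.45 ± 0.12 and Lrrn1, a leucine-rich repeat membrane protein, by 2.37 ± 0.26, but only 1 of 3 Lrrn1 probe sets was lower. Gsdmc2, a gasdermin of the family that can form membrane pores, went from 6.36 to 3.54 (-2.83 ± 0.32), while the 4 other gasdermins measured did not pass (-0.28 to -0.068). The Gsdmc2 fall is taken as a lower bound, from low signal in the arrays labelled knockout. Lrrn1 was at low signal there too, but its probe sets disagreed and no bound is given for it. The plot of the 20 largest falls shows each array.

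**Figure D3:**
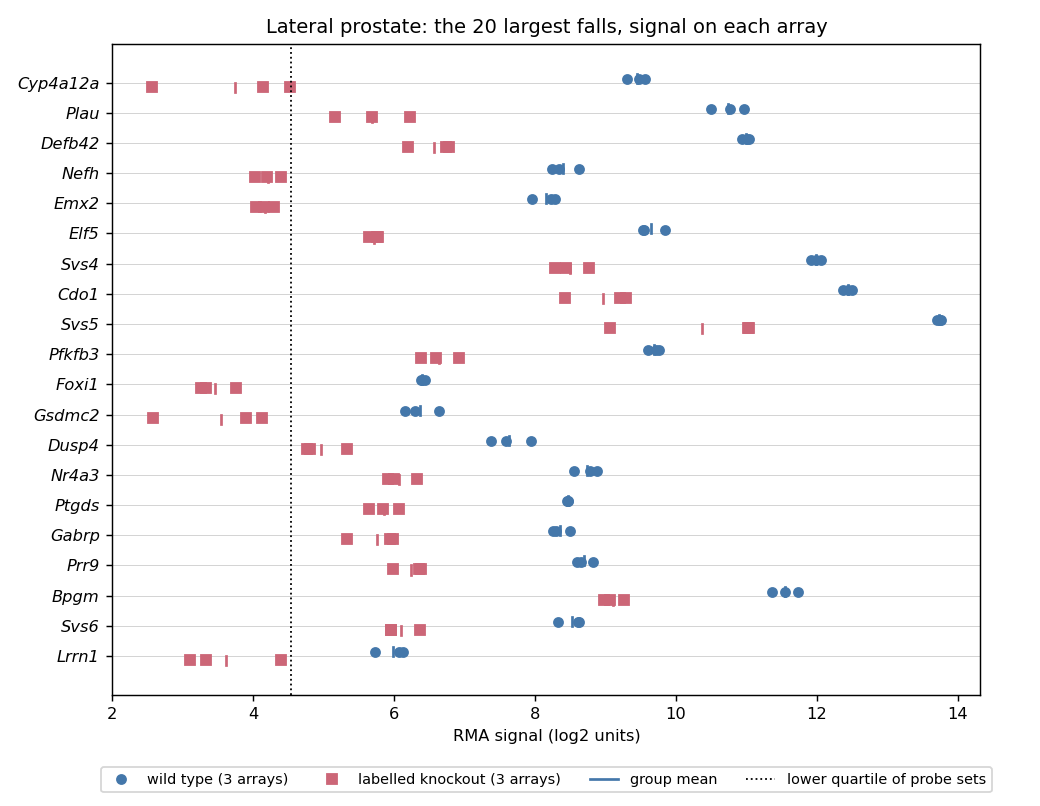
RMA signal in log2 units on each lateral array (circles, 3 wild-type arrays; squares, 3 arrays labelled knockout) for the 20 largest falls among called genes without overlap, with group means as short bars and the lower quartile of all probe sets as a dotted line. KO_LP replicate 3 lies apart from its group for Svs5, at 9.06 against 11.02 and 11.03.

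Enzymes of sulfur amino acids moved in both directions. Cdo1, which starts the oxidation of cysteine towards taurine, read 12.44, 12.37 and 12.5 on the wild-type arrays and 9.21, 9.29 and 8.42 on those labelled knockout (-3.47 ± 0.22, limma adjusted p = 5.54e-07). Cbs, which joins homocysteine and serine, read 9.66, 9.86 and 9.5 against 10.71, 10.76 and 10.72 (1.06 ± 0.13, adjusted p = 2.21e-04). Cth, the next enzyme towards cysteine, fell by 0.49 ± 0.12. The other 19 of 22 measured genes of this list did not pass, and its median was -0.13.

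Glycolysis showed a few large changes among mostly small ones. Pfkfb3, which makes the activator of phosphofructokinase, read 9.76, 9.6 and 9.72 on the wild-type arrays and 6.92, 6.38 and 6.59 on those labelled knockout (-3.06 ± 0.13, limma adjusted p = 4.00e-09). Bpgm, which makes 2,3-bisphosphoglycerate from a glycolytic intermediate, read 11.54, 11.36 and 11.73 against 9.26, 9.06 and 8.98 (-2.44 ± 0.1), and all 3 of its probe sets passed. Hexokinase Hk2 rose by 0.76 ± 0.11, while lactate dehydrogenase Ldhb (-0.76 ± 0.14) and enolase Eno2 (-0.87 ± 0.23) fell. With Emb, described below, and Suclg2 (0.39 ± 0.1) also higher, 3 of 42 genes of the glycolysis and citrate cycle list rose and 3 fell, with a median of -0.088. Bpgm was not a member of the list. Oxidative phosphorylation genes had a median of -0.047, beside -0.045 for the brighter genes, and of 41 genes 0 passed by limma, with 2 at an unadjusted p under 0.05.

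Lipid and retinoid enzymes also moved in both directions. Elovl6, which lengthens fatty acids, read 7.1, 6.96 and 7.37 on the wild-type arrays and 5.31, 5.55 and 5.21 on those labelled knockout (-1.79 ± 0.23, limma adjusted p = 2.93e-04). The desaturase Fads1 fell by 0.78 ± 0.12 and the carboxylase Acacb by 0.58 ± 0.091, while Angptl4, a secreted inhibitor of lipoprotein lipase, rose by 0.49 ± 0.12. Of 31 genes of fatty acid metabolism and PPAR targets 3 fell and 1 rose (median -0.16), and of 18 cholesterol synthesis genes 1 fell and 1 rose (median -0.16). Among the Cyp4 and Cyp2j genes Cyp2j13 fell by 1.42 ± 0.15 and Cyp4v3 rose by 1.03 ± 0.12, with 3 of 17 lower and 1 higher and a median of 0.03. In the retinoid list Aldh1a1, which makes retinoic acid, read 9.79 on each wild-type array and 10.6, 10.57 and 10.61 on the arrays labelled knockout (0.8 ± 0.074). The retinol dehydrogenase Rdh10 went from 8.22 to 7.2 (-1.02 ± 0.1) and the retinoic acid binding protein Crabp2 from 7.3 to 6.07 (-1.23 ± 0.081). With transthyretin (Ttr) also higher, 2 of 21 retinoid genes rose and 2 fell, and the median was -0.036.

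Antioxidant and conjugating enzymes split evenly. Gstk1 read 8.69, 8.61 and 8.72 on the wild-type arrays and 9.68, 9.67 and 9.69 on those labelled knockout (1.01 ± 0.11, limma adjusted p = 9.52e-05). Microsomal Mgst1 rose by 0.86 ± 0.12, catalase (Cat) by 0.72 ± 0.1 and Gsto1 by 0.74 ± 0.17. Falls were in Gstm7 (-1.02 ± 0.14), Gstm5 (-0.64 ± 0.11), the secretory-pathway peroxidase Gpx8 (-0.96 ± 0.11) and extracellular Sod3 (-0.69 ± 0.15). In all 5 of 36 were higher (13.9% beside 1.62% of all genes) and 4 lower (11.1% beside 3.42%), with a median of 0.0014.

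The largest rise was in Emb. This gene encodes embigin, a membrane chaperone of monocarboxylate transporters, and read 7.59, 7.34 and 6.75 on the wild-type arrays and 9.82, 9.55 and 9.62 on those labelled knockout (2.44 ± 0.17, limma adjusted p = 1.09e-06). The monocarboxylate transporter Slc16a1 read 5.59 and 5.9 and the related chaperone Bsg 10.97 and 11.38, and neither passed. Wfdc6a read 6.32, 6.38 and 5.96 against 8.31, 8.48 and 8.46. B4galnt2, the glycosyltransferase of the Sda blood group antigen, read 8.84, 8.54 and 8.16 against 10.78, 10.17 and 10.38 (1.93 ± 0.17), and 3 of its 4 probe sets passed as higher. Every array labelled knockout lay above every wild-type array for these 3 genes, a condition for naming rises that 11.2% of all genes met. In its list of 36 glycosyltransferases and mucins 2 rose and 1 fell, with a median of -0.048.

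Rises of at least 2-fold were also seen in genes of membranes, vitamin carriers and chromatin. Anpep, aminopeptidase N of luminal surfaces, read 6.99, 6.85 and 6.87 on the wild-type arrays and 8.44, 8.35 and 8.43 on those labelled knockout (1.51 ± 0.11, limma adjusted p = 1.09e-06). Atp13a4, a P-type ATPase, read 6.1, 5.33 and 5.01 against 7.39, 7.44 and 7.26 (1.89 ± 0.23). Ttr, a carrier of thyroid hormone and of retinol-binding protein, went from 5.13, 3.97 and 4.1 to 6.12, 6.43 and 6.2 (1.85 ± 0.24). All 4 of its probe sets passed, and the rise, from low signal, is taken as a lower bound. Among the wild-type arrays WT_LP replicate 1 was the highest for both Atp13a4 and Ttr. It lay below every array labelled knockout, as the condition for naming rises required. Stra6l, a receptor for retinol-binding protein, rose by 1.48 ± 0.25 and Dmkn, dermokine, by 1.33 ± 0.21. Both rose from low signal, and these sizes are taken as lower bounds. Also higher were H2bc18, a histone gene (1.86 ± 0.31), Tmem267 (1.6 ± 0.27), the PDZ-domain gene Gipc2 (1.41 ± 0.14) and Bex1 (1.24 ± 0.12). The guanine nucleotide exchange factor Arhgef4 (1.11 ± 0.11), the secretory-pathway cargo gene Mia2 (1.08 ± 0.093) and the ganglioside sialidase Neu3 (1.06 ± 0.15) rose by smaller amounts. Of 12 histone genes H2bc18 was the 1 that passed.

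**Figure D4:**
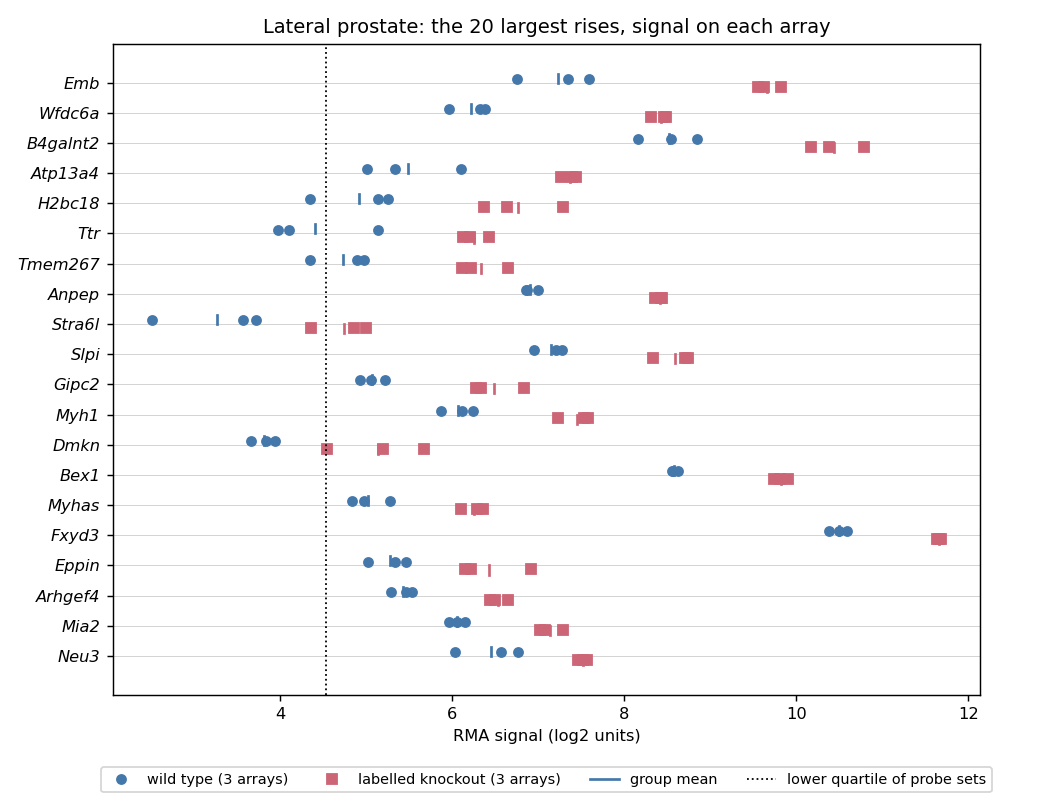
RMA signal in log2 units on each lateral array (circles, 3 wild-type arrays; squares, 3 arrays labelled knockout) for the 20 largest rises among called genes without overlap, with group means as short bars and the lower quartile of all probe sets as a dotted line. Emb moves from 6.75 to 7.59 in wild type to 9.55 to 9.82 in the arrays labelled knockout.

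Ion transport genes of the epithelium moved in both directions. Fxyd3, a regulator of the sodium pump, read 10.59, 10.38 and 10.5 on the wild-type arrays and 11.66, 11.64 and 11.68 on those labelled knockout (1.17 ± 0.083, limma adjusted p = 1.09e-06). The sodium pump subunit Atp1b3 read 11.44, 11.32 and 11.44 against 10.67, 10.5 and 10.52 (-0.83 ± 0.079). The calcium channel Trpv6 fell from 8.19 to 6.47 (-1.72 ± 0.19). Slc12a2, which brings sodium, potassium and chloride into the cell, rose by 0.84 ± 0.096, as did the epithelial sodium channel subunits Scnn1a (0.76 ± 0.13) and Scnn1b (0.47 ± 0.1). Kcnq1 (-0.76 ± 0.1), the chloride channel Ano1 (-0.43 ± 0.08) and the water channel Aqp1 (-0.64 ± 0.14) fell, and so did Clca1 (-1.29 ± 0.15), at low signal in both groups. Over the list 4 of 37 were higher (10.8% beside 1.62% of all genes) and 6 lower (16.2% beside 3.42%), with a median of 0.072. Of 19 genes of proton-secreting cells 4 fell and 0 rose, with Foxi1 followed by the proton pump subunit Atp6v0d2 (-1.01 ± 0.13) and carbonic anhydrase Car2 (-0.69 ± 0.13), and the median was -0.078.

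Secreted products of the prostate itself were mostly not called, but the share lower was above that of all genes. Lcn2, an iron-carrying defence protein, read 8.53, 8.34 and 8.56 on the wild-type arrays and 6.81, 6.66 and 6.75 on those labelled knockout (-1.74 ± 0.12, limma adjusted p = 1.19e-06). Pnliprp1, a lipase-related protein, went from 7.44 to 5.98 (-1.46 ± 0.17), and the immunoglobulin receptor Pigr from 9.47 to 8.83 (-0.64 ± 0.13). Of 24 secretory genes 5 fell (20.8% beside 3.42% of all genes) and 0 rose, with a median of -0.12. Leaving out WT_LP replicate 2 or WT_LP replicate 3 left 3 falls. Major products such as Tgm4, the transglutaminase that cross-links semen proteins, averaged 13.6 and 13.58, and Msmb averaged 13.32 and 13.2. Among protease inhibitors 3 of 34 rose, Wfdc6a, Slpi and Timp4 (0.7 ± 0.082), and 3 fell, and the median was 0.0097. In the antimicrobial list 1 of 28 rose and 3 fell (median 0.012).

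Called members of the smooth muscle, matrix and pelvic neuron lists were all lower, while most members of each list did not pass. Of 17 smooth muscle genes 7 fell (41.2% beside 3.42% of all genes) and 0 rose, with a median of -0.40. Their mean level ran from 10.89 to 11.01 on the wild-type arrays and from 10.39 to 10.67 on the arrays labelled knockout. Synm, an intermediate filament of muscle, read 9.5, 9.45 and 9.67 against 8.94, 8.69 and 8.82 (-0.73 ± 0.095, limma adjusted p = 3.70e-04). Myl9 fell by 0.50 ± 0.12, while Acta2, the smooth muscle actin, averaged 13.1 and 12.9 and did not pass. Fibroblast and matrix genes had 9 falls (39.1%) and 0 rises among 23 (median -0.33, mean level 8.58 to 8.66 against 8.17 to 8.41). Lum, a collagen-binding proteoglycan, read 6.64, 6.94 and 6.96 against 5.67, 5.96 and 5.27 (-1.21 ± 0.17). Pelvic ganglion neuron genes had 7 falls (41.2%) and 0 rises among 17 (median -0.56, mean level 6.21 to 6.41 against 5.55 to 5.72). Besides Nefh these were the vesicle protein Snap25 (-1.06 ± 0.26), the light and medium neurofilaments Nefl (-0.79 ± 0.13) and Nefm (-0.56 ± 0.15), Uchl1 (-0.74 ± 0.12), Npy (-0.64 ± 0.11) and the noradrenaline enzyme Dbh (-0.57 ± 0.093). The smooth muscle and matrix counts leaned on single arrays. Pelvic neuron falls numbered 5 to 7 over the alternatives that kept all genes and the threshold. Smooth muscle falls numbered 4 without WT_LP replicate 1 and 2 without either WT_LP replicate 3 or KO_LP replicate 2. Matrix falls numbered 5 without WT_LP replicate 2 and 4 without either WT_LP replicate 3 or KO_LP replicate 2.

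**Figure D5:**
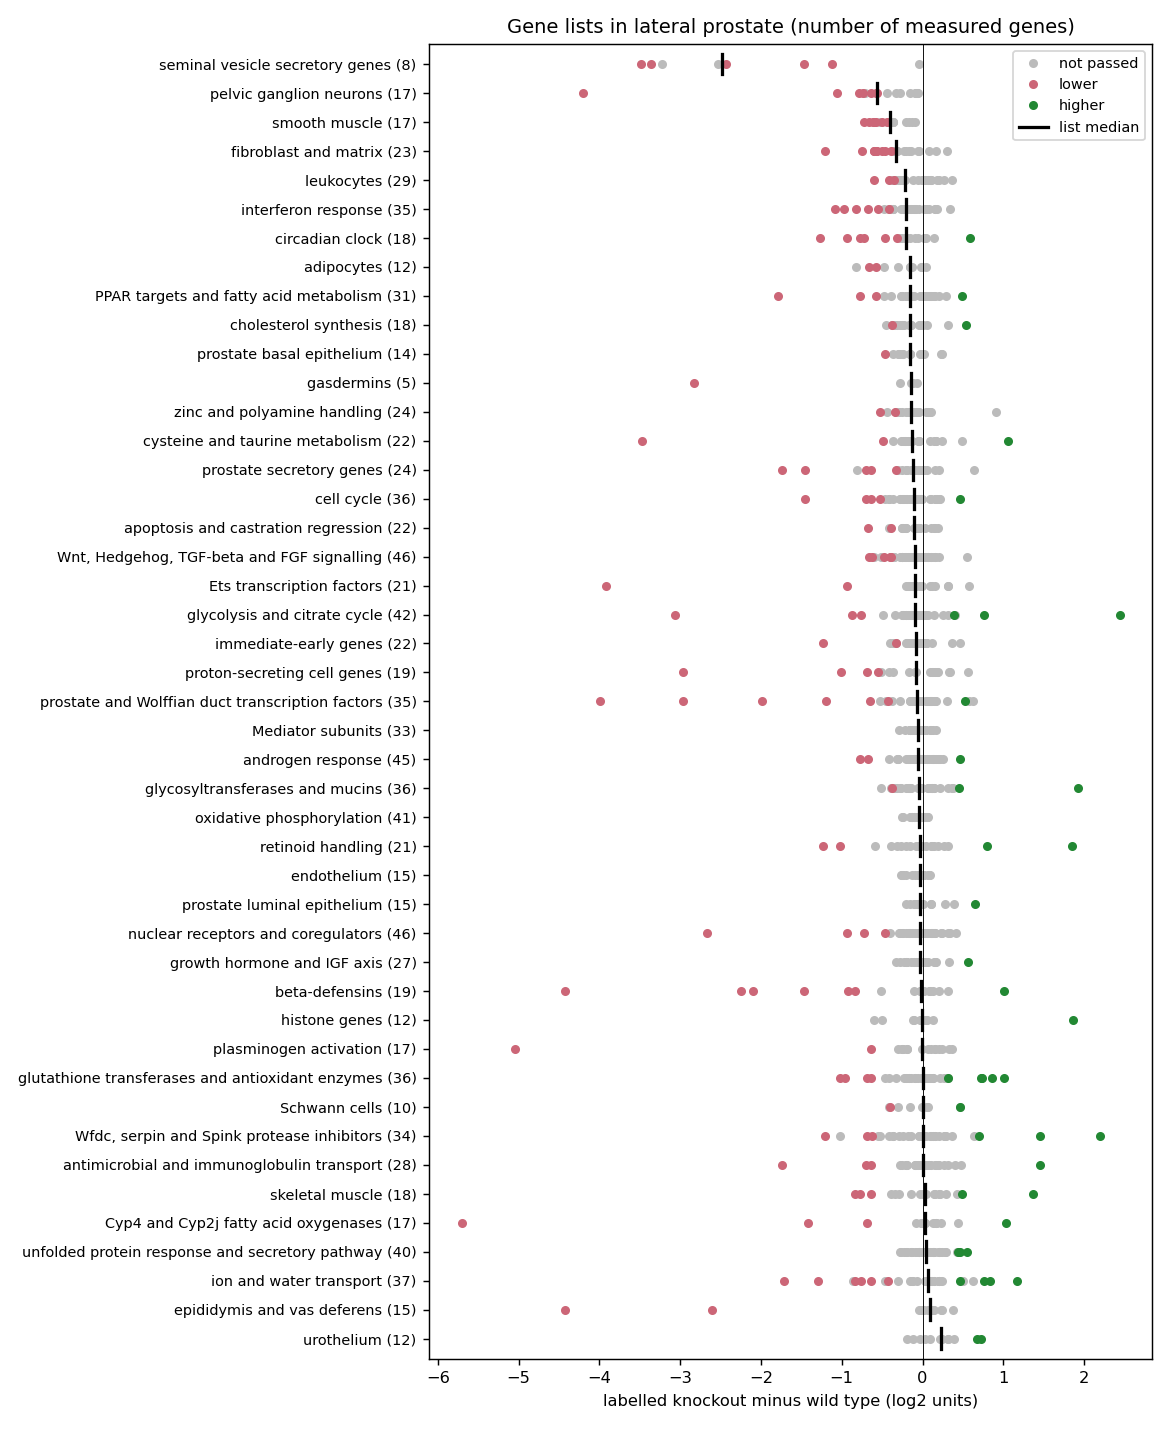
Difference between the labelled knockout and wild-type lateral arrays in log2 units for each measured member (points) of the 45 gene lists, ordered by list median (black bar), with called members in colour. Seminal vesicle secretory genes have the lowest median, -2.48, and urothelium genes the highest, 0.23.

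Other cell types gave smaller or mixed values. Of 15 luminal epithelium genes 1 rose, the peptidase Dpp4 (0.65 ± 0.1), and 0 fell, with a median of -0.027. Of 14 basal genes the keratin Krt5 fell, from 10.13 to 9.65 (-0.47 ± 0.09), and 0 rose (median -0.15). Endothelial genes had a median of -0.029, and of 15 measured 0 passed by limma, with 1 at an unadjusted p under 0.05. Leukocyte genes had 3 falls and 0 rises among 29 (median -0.22, and 1 fall without any 1 of WT_LP replicates 2 and 3 and KO_LP replicates 2 and 3), led by the signalling adaptor Tyrobp (-0.6 ± 0.1). Adipocyte genes had 2 falls and 0 rises among 12 (median -0.16), with lipoprotein lipase Lpl at -0.66 ± 0.17. Of 10 Schwann cell genes 1 rose and 1 fell (median 0.0026). Urothelium genes rose in 2 of 12 cases and fell in 0 (median 0.23), the uroplakins Upk1a (0.68 ± 0.085) and Upk3b (0.73 ± 0.11), while Upk1b averaged 9.75 and 9.72. Of 15 epididymis and vas deferens genes 2 fell, Defb42 and Ptgds, and 0 rose (median 0.094), and 6 had low signal in both groups.

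Skeletal muscle genes split by member. Myh1, a fast myosin heavy chain, read 6.24, 5.87 and 6.11 on the wild-type arrays and 7.53, 7.58 and 7.23 on those labelled knockout (1.37 ± 0.18, limma adjusted p = 4.08e-04). Myhas, the antisense gene next to it, rose by 1.22 ± 0.17. Myh4 rose by 0.49 ± 0.1 from low signal, which is taken as a lower bound. Troponin Tnnc2 (-0.83 ± 0.11), skeletal actin Acta1 (-0.64 ± 0.12) and titin fell. Over the 18 genes 2 rose and 3 fell, with a median of 0.029. The Myh1 probe set is of a kind whose probes can also bind related transcripts, so its reading is uncertain among the neighbouring myosin genes.

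Interferon response genes were lower in 6 of 35 cases (17.1% beside 3.42% of all genes) and higher in 0, with a median of -0.21. Usp18, which removes the ubiquitin-like modifier of the response, read 5.84, 5.67 and 5.89 on the wild-type arrays and 4.45, 4.56 and 5.14 on those labelled knockout (-1.08 ± 0.22, limma adjusted p = 0.0101). Rtp4 (-0.97 ± 0.16), Oasl2 (-0.82 ± 0.15), Xaf1 (-0.68 ± 0.12), the RNA sensor Ddx58 (-0.55 ± 0.11) and Gbp2 (-0.41 ± 0.092) fell as well. Leukocyte marker levels ran from 6.04 to 6.11 in wild type and from 5.91 to 5.99 in the arrays labelled knockout, and their part in this was not tested. Genes of the unfolded protein response and secretory pathway rose in 3 of 40 cases and fell in 0 (median 0.043), namely the ubiquitin ligase Syvn1 (0.55 ± 0.1), Creld2 (0.46 ± 0.096) and Herpud1 (0.44 ± 0.1).

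Of 18 circadian clock genes 6 fell and 1 rose. Dbp, a clock-controlled transcription factor, read 9.56, 9.83 and 9.38 on the wild-type arrays and 8.44, 8.71 and 7.81 on those labelled knockout (-1.27 ± 0.18, limma adjusted p = 8.84e-04). Nr1d1, a repressor of the clock, read 8.6, 8.54 and 8.65 against 7.72, 7.71 and 7.55 (-0.94 ± 0.12), and its relative Nr1d2 fell by 0.72 ± 0.18. Cry1, which acts in the opposite phase of the cycle, read 6.69, 6.85 and 6.82 against 7.47, 7.26 and 7.4 (0.59 ± 0.12). Bhlhe40 (-0.77 ± 0.11), Rora (-0.47 ± 0.082) and Ciart (-0.31 ± 0.083) fell too. The share lower was 33.3% beside 3.42% of all genes, and the list median was -0.21. The labels give no time of day of collection.

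Proliferation and signalling genes showed single members at larger size. Ccnd1, the cyclin that drives entry into the cell cycle, read 10.17, 10.08 and 10.42 on the wild-type arrays and 8.85, 8.71 and 8.73 on those labelled knockout (-1.46 ± 0.095, limma adjusted p = 5.54e-07), and all 3 probe sets passed. Its kinase Cdk6 fell by 0.53 ± 0.1 and the nucleotide enzyme Rrm2 by 0.70 ± 0.13, as did the inhibitor Cdkn2c (-0.64 ± 0.12), while the inhibitor Cdkn1a rose by 0.46 ± 0.095. Of 36 cell cycle genes 4 fell and 1 rose, with a median of -0.11. The Ets factor Etv5 fell by 0.93 ± 0.14, and with Elf5 it made 2 of 21 Ets genes lower and 0 higher (median -0.088). Fosb fell by 1.23 ± 0.22 and Jun by 0.33 ± 0.086, the 2 of 22 immediate-early genes called (median -0.085). In the Wnt, Hedgehog, TGF-beta and FGF list 5 of 46 fell and 0 rose (median -0.094), among them the stromal growth factor Fgf7 (-0.66 ± 0.16), Dkk3 (-0.63 ± 0.12) and the Hedgehog targets Hhip (-0.48 ± 0.082) and Ptch1 (-0.39 ± 0.091). Growth hormone receptor (Ghr) rose by 0.56 ± 0.1, the single call of 27 in its list (median -0.026).

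Mediator and the nuclear receptors it serves were set beside the 5.03% of all genes that passed. Of 33 Mediator subunits 0 passed by limma and 2 had an unadjusted p under 0.05, with a range of -0.29 to 0.17 and a median of -0.06. Of 46 nuclear receptors and coregulators 4 fell, Nr4a3, Nr1d1, Nr1d2 and Rora, and 0 rose (8.7% lower beside 3.42% of all genes, median -0.026). The androgen-response list had 2 falls (4.44%) and 1 rise (2.22%) among 45 genes, with a median of -0.055. The kinase Sgk1 read 11.73, 11.66 and 11.76 on the wild-type arrays and 11.01, 10.78 and 11.04 on those labelled knockout (-0.77 ± 0.091, limma adjusted p = 1.50e-04), and the elongation factor Ell2 fell by 0.67 ± 0.11. Of 24 genes of zinc and polyamine handling 2 fell, the zinc transporters Slc39a10 (-0.53 ± 0.1) and Slc39a6 (-0.34 ± 0.09), and 0 rose (median -0.14). Of 22 genes of apoptosis and castration regression 2 fell, Mgp (-0.68 ± 0.12) and Bcl2 (-0.39 ± 0.089), and 0 rose (median -0.1).

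The lateral changes were set against those of the ventral lobe through the difference between the genotype effects. This test passed for 20 of the 20 largest falls and for 11 of the 20 largest rises. These genes had been chosen for their lateral size, so the counts say nothing of other genes. Some falls averaged under 4.53, the lateral low-signal mark, already on the ventral wild-type arrays. They were Svs4 (3.13), Svs6 (3.18), Foxi1 (3.25), Emx2 (3.71), Cyp4a12a (3.8), Defb42 (4.23), Nefh (4.27) and Prr9 (4.34). Their ventral signal left little room for a fall of lateral size, so the test cannot compare such falls between lobes. Plau was at -5.05 ± 0.23 in lateral and 0.58 ± 0.23 in ventral tissue, a difference between lobes of -5.63 ± 0.33 (limma adjusted p = 3.30e-07). Wfdc6a was at 2.2 ± 0.14 and 0.0074 ± 0.14 (2.19 ± 0.2, adjusted p = 2.17e-05). Gsdmc2 moved in opposite directions, with a ventral rise of 2.73 ± 0.32 and a difference of -5.55 ± 0.45 (adjusted p = 8.45e-06). Of the 20 falls 3 were called in the ventral lobe, and only Elf5 was lower there too (-0.66, adjusted p = 0.00582). For the falls with low ventral wild-type signal named above, a ventral fall could hardly have been read. Ptgds, like Gsdmc2, was higher in ventral tissue (1.01, adjusted p = 0.0221). Of the 20 rises 6 were called there, all higher: Emb, B4galnt2, H2bc18, Tmem267, Bex1 and Arhgef4. Emb was at 2.44 and 2.12, and the lobes were not separated (difference 0.32 ± 0.25, adjusted p = 0.441), a result that leaves equality of the rises unshown.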

How the data were processed

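Total RNA of mouse prostate lobes was read on single-colour Affymetrix arrays, and the authors deposited log2 values made with Affymetrix Expression Console and RMA, per the submitters' processing notes. The sources used here give no versions and no genome build. The sorted values of the 6 lateral arrays spanned a median of 0.0786, and those of all 12 spanned 0.388, so levels of different lobes are not compared. Of 45101 probe sets, 34958 had 1 gene symbol, 932 several and 9211 none listed. Symbols were updated by Entrez identifier in a RefSeq table of GRCm38.p6 (34754 matched), and each gene kept its probe set of highest mean signal across the 12 arrays.

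Limma 3.58.1 in R 4.3.3 fitted 4 group means over 12 arrays (8 residual and 5.68 prior degrees of freedom), with Benjamini-Hochberg adjustment over all 18194 genes. RMA gives no detection calls, so a group mean under 4.53, the lower quartile of lateral probe sets, is called low signal. A difference against it, except for Lrrn1, is taken as a lower bound. The mark is a quartile and not a measured floor, so these bounds are a convention and carry the SE given with each difference. The number of arrays limits the precision. The steps were tested on simulated data. Genes named are Med1, the 20 largest called rises and falls without overlap, passing over uncharacterised loci, and up to 6 called members per list in order of p; other members and genes outside the rule are given as descriptions. Of 1190 genes on the 45 lists, 1059 had values and the others were not analysed here. The comparison, lists and naming rule were chosen with earlier results of these data known. Promoter sequences from RefSeq matched 33 of 41 named genes. Alternatives changed the arrays in the fit, replicate block, normalization, dim-gene filter, probe set handling, variance model and threshold, and left out each array.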

Additional observations from a re-analysis of the deposited data

Results flagged for a closer look

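The genotype effect differed between the lateral and the ventral lobe, by limma's test of that difference over all genes, for 31 of the 40 genes named for their size (adjusted p of 0.0157 or lower). The values are the lateral minus the ventral effect in log2 units, with 3 arrays in each group, and the lobes appear to have been normalized separately. Among the falls it was -4.76 for Cyp4a12a, -5.63 for Plau, -4.30 for Defb42, -4.39 for Nefh, -4.05 for Emx2, -3.26 for Elf5 and -3.98 for Svs4. It was -3.69 for Cdo1, -3.11 for Svs5, -2.89 for Pfkfb3, -2.81 for Foxi1, -5.55 for Gsdmc2, -2.69 for Dusp4 and -3.17 for Nr4a3. It was -3.62 for Ptgds, -2.57 for Gabrp, -2.08 for Prr9, -2.48 for Bpgm, -2.78 for Svs6 and -2.56 for Lrrn1. Among the rises it was 2.19 for Wfdc6a, 1.57 for Atp13a4, 1.73 for Anpep, 1.36 for Slpi, 1.61 for Gipc2 and 1.26 for Myh1. It was 1.49 for Dmkn, 1.04 for Myhas, 1.15 for Fxyd3, 1.10 for Eppin and 0.80 for Mia2. The genes had been chosen for their lateral size, which favours a difference between lobes. For Svs4, Svs6, Foxi1, Emx2, Cyp4a12a, Defb42, Nefh and Prr9 the ventral wild-type signal was low, which left little room for a ventral fall.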

How the results depend on the processing

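Of 857 values for 43 named genes under 21 alternatives, 844 kept their direction and their side of the threshold and 11, of Svs2 and Pate4, came to pass. The 2 that reversed were Med1, at 0.045 with the mean of its probe sets and 0.15 with the probe set of highest lateral mean. Both alternatives changed which Med1 probe sets were read. The main one stood at -0.13, and others lay above 0, up to 0.44, with none of them called. Leaving out the dimmest 40% of genes kept 10917 genes and gave 64 at 2-fold and 19 differences between lobes. Named genes dimmer than the cut-off were not tested there, so they could not count among these differences. Leaving out the dimmest 60% gave 568 calls, 171 higher and 397 lower, 28 at 2-fold and 7 differences between lobes, with fewer genes tested. At an adjusted p under 0.01 there were 396 calls, 103 higher and 293 lower, and under 0.10 there were 1509, 547 higher and 962 lower. Centring on the brighter genes gave 491 higher, and the 5 lateral arrays without KO_LP replicate 3 gave 524 calls, 149 higher and 375 lower. These last 2 alternatives were chosen after seeing the data. Leaving out each array in turn gave 499 to 950 calls, 152 to 293 higher, 346 to 657 lower, 123 to 129 at 2-fold and 31 to 34 differences between lobes. With the replicate number as a block, 775 genes passed over the lateral arrays and 823 over all 12. Deviations of same-numbered lateral arrays correlated at -0.007, 0.039 and -0.004. Such values cannot decide whether the numbers pair the samples, and the labels do not say. Signal near background limits 62 calls that were dim in both groups.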
